A study of Mus musculus with 14 samples.

Results

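The step from LSK cells to MyePro cells was read in Dpy30 knockout (KO) mouse bone marrow by setting 1 KO MyePro library against 1 KO LSK library, 2 of the 14 samples of the series. LSK cells are the lineage-negative, Sca-1-positive, Kit-positive marrow fraction in which stem cells and other multipotent cells are found, and MyePro is the submitters' name for a myeloid progenitor fraction whose sorting gate the labels do not give. KO cells carried the interferon-inducible Mx1-Cre transgene with 1 floxed and 1 null Dpy30 allele (Mx1-Cre; Dpy30F/-), and control cells carried Mx1-Cre with 1 floxed and 1 wild-type allele (Mx1-Cre; Dpy30F/+). In both genotypes CD45.2+ donor marrow had been transplanted together with CD45.1+ C57Bl/6J competitor marrow into irradiated CD45.1+ recipients. All recipients then received 4 injections of pIpC at 7.5 µg/g, starting 7 weeks after transplantation, and marrow was collected 2 weeks after the last one. The controls therefore share the Cre, the pIpC and the transplantation with the KO cells. Each library was pooled from 2 to 3 chimeric mice. The labels state selection of donor-derived cells for the long-term stem cells of the series, and for LSK and MyePro cells whether competitor cells were gated out is not stated in the sources used here.

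DPY30 is a core subunit common to the SET1 and MLL enzymes, whose product, methylated lysine 4 on histone H3, marks active promoters. When multipotent cells of the LSK fraction become myeloid progenitors, they normally shut down stem cell and lymphoid genes. They then turn on genes of the erythroid, megakaryocytic, granulocytic, monocytic or mast cell and basophil lines, led by factors such as GATA1, KLF1, PU.1 and the C/EBP family. Dpy30 itself (chr17:74299474-74323944, GRCm38.p6) was read at 41.7 CPM (counts per 1000000 gene counts, scaled by the TMM method) in KO LSK and 51.6 CPM in KO MyePro, against 78.0 and 116 CPM in control LSK and control MyePro. The level was thus lower in each KO library than in the control library of the same population, and it was not at 0.

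The KO LSK library held 6130320 gene counts and the KO MyePro library 11531994, against 14974432 and 20820762 in the control LSK and control MyePro libraries. One library per group leaves no spread between mice to test against, so no test was made, and every 95% interval given covers counting error only. The KO MyePro library also differed from KO LSK in what it held besides messenger RNA. The ribosomal RNA-like entry Gm26924 took 5.08% of its gene counts against 1.69% in KO LSK, and Lars2, which overlaps similar sequence, 0.893% against 0.330%. Reads without a feature took 5.87% against 3.83% of the deposited entries. In the control libraries the order was the opposite, with Gm26924 at 1.01% in MyePro and 5.37% in LSK. In pooled bulk samples such as these, fewer cells of a type and less RNA per cell cannot be told apart.

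Of the 10345 genes that averaged 5 CPM or more in the 2 KO libraries, 339 (3.28%) were at least 2-fold higher in KO MyePro than in KO LSK and 154 (1.49%) were at least 2-fold lower. Just inside and just outside that floor, Dock6 had a mean of 5.00 CPM and 9330182L06Rik one of 4.99 CPM. The counting interval lay wholly past 2-fold for 156 of the higher and 67 of the lower genes. A further 563 genes were between 1.5 and 2-fold higher, and 382 were between 1.5 and 2-fold lower. At 4-fold the counts were 36 higher and 23 lower. Scaling to library totals instead shifted the median ratio of all genes from 0.01 to -0.13 on the log2 scale. Under that scaling 51.3% of the genes past 2-fold were higher, against 68.8% under TMM. As a yardstick for pools of the same genotype, the 2 KO LT-HSC libraries of the series differed by 2-fold or more at 12.6% of their genes, and the 2 control ones at 16.3%. Those libraries were made from amplified RNA of pools of 7 to 9 mice, so they are not a measure of error for the LSK and MyePro libraries. The share of genes past 2-fold between the 2 KO populations was thus smaller than between replicate pools of another population made another way.

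**Figure D1:**
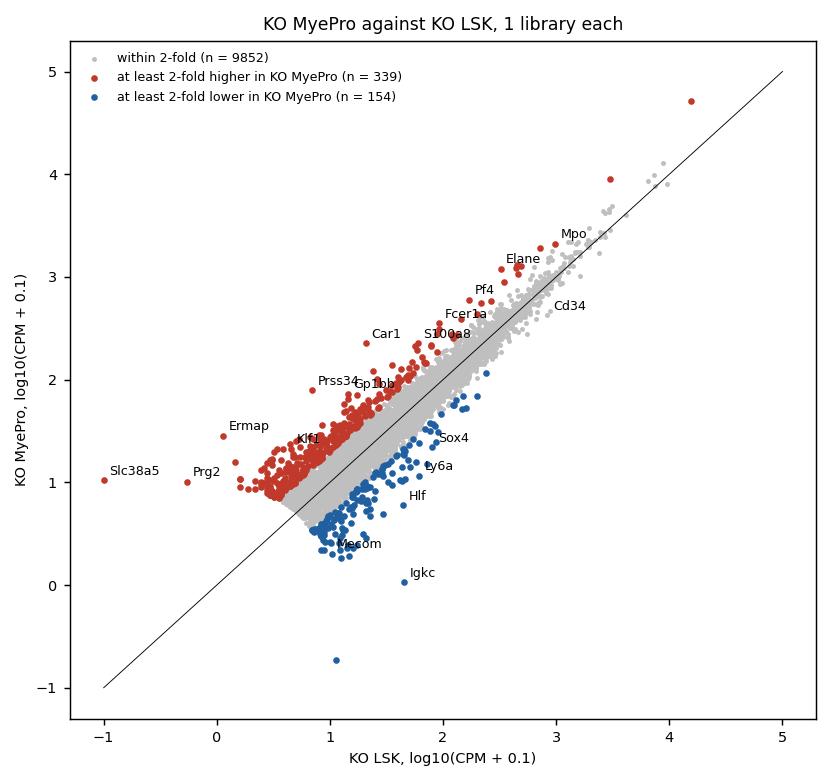
Level of each gene in KO LSK (horizontal, log10 of CPM plus 0.1) and KO MyePro (vertical, same scale), 1 library each, for 10345 genes. The black line marks equal levels, red points are the 339 genes at least 2-fold higher in KO MyePro and blue points the 154 at least 2-fold lower. Erythroid and mast cell or basophil genes (Ermap, Car1, Prss34, Prg2) stand farthest above the line, and Igkc and Hlf lie far below it.

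Erythroid genes were among those with the highest ratios. Slc38a5, an amino acid transporter of red cell precursors, had 0 counts in KO LSK and 119 in KO MyePro, at least 23.3-fold higher against a floor of 3 counts. Ermap, an erythroid membrane protein, was read at 1.04 CPM in KO LSK and 28.3 CPM in KO MyePro, a log2 ratio of 4.57 (95% counting interval 3.70 to 6.09). Car1, the red cell carbonic anhydrase 1 (chr3:14766214-14808365), went from 20.7 to 227 CPM, a log2 ratio of 3.44 (3.21 to 3.71). Slc38a5 and Ermap were near the detection limit in KO LSK, and Car1 was not. All 3 stayed far under control MyePro, which had 109 CPM of Slc38a5, 453 of Ermap and 2266 of Car1.

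The master regulator of the red cell program and the receptor that keeps erythroid progenitors alive were also higher. Klf1 (chr8:84901982-84905291) was read at 4.46 CPM in KO LSK and 21.2 in KO MyePro, a log2 ratio of 2.21 (1.70 to 2.85). Epor, the erythropoietin receptor (chr9:21958897-21963576), was read at 2.98 and 16.9 CPM, a log2 ratio of 2.45 (1.84 to 3.25). Gata1, which drives both erythroid and megakaryocytic genes, was read at 46.7 and 107 CPM, a log2 ratio of 1.19 (1.01 to 1.37). These were the 3 members past 2-fold among 14 erythroid transcription factors and partners, all of which passed the 5 CPM floor (Klf1 and Epor only through the KO MyePro library), and 0 were 2-fold lower. Partners that are also used by stem cells stood near equal levels, with 150 and 146 CPM for Tal1 and 334 and 388 CPM for Lmo2. The list's median log2 ratio was 0.02, against 0.01 over all genes, and it lay below 0 when library totals, RLE size factors or a TMM fit within each genotype were used.

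GATA factors bind the letters AGATAA or TGATAA. The windows before the starts of 3 genes picked from the lists are shown to place such letters beside the values. All 3 hold the motif, and genes with higher ratios, such as Ermap and Slc38a5, are not shown. Each window is 150 bases of the RefSeq GRCm38.p6 reference upstream of the annotated start, 5′ to 3′ on the gene's strand. The motif is in capitals on either strand. Klf1 lies at chr8:84901832-84901981 on the plus strand, Epor at chr9:21963577-21963726 on the minus strand, and Prss34, a mast cell and basophil protease described below, at chr17:25298244-25298393 on the plus strand.
Klf1: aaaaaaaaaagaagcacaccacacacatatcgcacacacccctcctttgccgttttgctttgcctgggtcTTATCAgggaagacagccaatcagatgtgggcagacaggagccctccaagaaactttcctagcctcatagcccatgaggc
Epor: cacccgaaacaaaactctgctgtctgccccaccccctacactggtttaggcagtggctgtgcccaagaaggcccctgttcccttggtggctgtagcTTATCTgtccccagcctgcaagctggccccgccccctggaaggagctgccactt
Prss34: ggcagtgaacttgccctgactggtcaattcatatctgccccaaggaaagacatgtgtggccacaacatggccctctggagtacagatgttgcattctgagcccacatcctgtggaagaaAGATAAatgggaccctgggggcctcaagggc
The motif begins 80 bases before the start of Klf1, where it stands as TGATAA read on the opposite strand. It begins 54 bases before that of Epor (AGATAA on the opposite strand) and 31 before that of Prss34 (AGATAA on the same strand). Over the 250 bases upstream of a start, AGATAA or TGATAA on either strand was found in 6 of 12 matched erythroid regulators (50.0%), 7 of 14 red cell membrane and enzyme genes (50.0%) and 10 of 19 mast cell, basophil and eosinophil genes (52.6%). Over all 27025 genes in the reference table the share was 18.8%, and among 18 matched primary granule genes 1 (5.56%) held it. Shares in the other lists ran from 0% to 75.0% (3 of 4 globin genes). They included 7 of 21 megakaryocyte and platelet genes (33.3%), 4 of 18 late neutrophil genes (22.2%) and 2 of 5 sex-linked genes (40.0%). Such a match describes the letters in the window and is not evidence of binding, which was not analysed here.

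Some genes of the red cell membrane and its enzymes were higher as well. Of 25 listed, 13 passed the floor (4 only through the KO MyePro library), of which 7 were at least 2-fold higher and 0 lower, with a median log2 ratio of 1.53 that does not move when Slc38a5 is set at its bound. Aqp1, the red cell water channel, was read at 24 and 121 CPM, a log2 ratio of 2.33. Tspan33, a tetraspanin of erythroid cells, was read at 4.61 and 17.4 CPM. Among the 12 members under the floor, pyruvate kinase Pklr went from 0 to 94 counts (at least 18.4-fold higher) and Cldn13 from 0 to 85 (at least 16.7-fold higher). Rhd and Rhag, which carry the Rh antigens, went from 2 and 3 counts to 89 and 92. Not all red cell genes were higher. Car2, the other carbonic anhydrase, was read at 657 CPM in KO LSK and 387 in KO MyePro, a log2 ratio of -0.76, while control MyePro had 2273 CPM against 882 in control LSK.

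Heme and iron genes were higher by smaller steps. Of 22 members with at least 5 CPM, 1 was past 2-fold, the iron exporter Slc40a1, at 6.99 and 19 CPM. The median log2 ratio of the 22 was 0.51, with 20 of them above 0 in value. Alas1, the housekeeping form of the first enzyme of heme synthesis, was read at 96.1 and 182 CPM, and the transferrin receptor Tfrc at 78.6 and 107 CPM. Control cells had a median of 1.10 over the same genes and 413 CPM of Tfrc in MyePro. The globin genes were read at low levels, and their near-identical copies can share reads. Hbb-bs stood at 12.1 and 36.4 CPM and Hba-a1 at 2.68 and 12.3 CPM in KO LSK and KO MyePro. In KO MyePro both were above the 2.41 and 3.54 CPM of control MyePro. Hba-a1 passed the floor only through the KO MyePro library. Hbb-bt, the third with at least 5 CPM, stood at 14.1 and 15.2 CPM in KO cells and at 5.30 and 1.64 CPM in control cells. Alas2, the erythroid form of the same enzyme, had 1.04 and 1.75 CPM.

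Mast cell, basophil and eosinophil genes were the other group with steep ratios. Prss34 (chr17:25298394-25300168), a basophil and mast cell protease, was read at 6.84 CPM in KO LSK and 78.7 in KO MyePro, a log2 ratio of 3.49 (3.10 to 3.98). Fcer1a, the IgE-binding chain of the high-affinity receptor, was read at 92.1 and 353 CPM, a log2 ratio of 1.94 (1.82 to 2.06). Prg2, the eosinophil major basic protein, went from 3 counts to 115, a log2 ratio of 4.09 with a wide interval of 2.91 to 6.79. Of 23 listed members 10 passed the floor (2 only through the KO MyePro library), 8 of them at least 2-fold higher and 0 lower, with a median of 1.49.

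Further members of that set were higher too, by smaller folds. Hdc, which makes histamine, was read at 143 and 389 CPM, Mcpt8, a basophil protease, at 201 and 435 CPM, and Il1rl1, the IL-33 receptor, at 14.7 and 43.1 CPM. Mast cell carboxypeptidase Cpa3 went the other way in value, from 374 to 262 CPM, and Gzmb stood at 103 and 104 CPM. Mature mast cell proteases were absent or nearly so, with 0 counts of Tpsb2 and Tpsab1 in both KO libraries. Several of these genes were higher in both KO populations than in control ones, as with Fcer1a at 13.5 and 23.5 CPM in control LSK and MyePro. Prss34 and Prg2 were the reverse, at 108 and 176 CPM and at 14.2 and 107 CPM in the controls.

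Several megakaryocyte and platelet genes were higher in KO MyePro than in KO LSK and lower in control MyePro than in control LSK. Gp1bb, the beta chain of platelet glycoprotein Ib (chr16:18620319-18622403), was read at 14.3 CPM in KO LSK and 73.2 in KO MyePro, a log2 ratio of 2.34 (2.05 to 2.68). In control cells it went from 18.7 to 5.28 CPM. Platelet factor 4, Pf4 (chr5:90772435-90773383), was read at 170 and 602 CPM in KO LSK and KO MyePro, a log2 ratio of 1.83 (1.74 to 1.92), and at 142 and 45.5 CPM in the controls. Both genes were thus highest of the 4 libraries in KO MyePro and lowest in control MyePro.

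Vwf, which carries platelets to sites of injury, was read at 9.82 and 27.6 CPM in KO LSK and KO MyePro against 92.9 and 21.3 CPM in the controls. Clec1b, the platelet receptor for podoplanin, was read at 13.8 and 49.4 CPM in the KO libraries and at about the detection limit, 1.16 and 1.03 CPM, in the controls. Of 27 listed members 25 passed the floor, of which 9 were at least 2-fold higher in KO MyePro and 0 lower, with a median log2 ratio of 0.86. Others stood short of 2-fold, such as Itga2b, the integrin that marks the lineage, at 324 and 548 CPM, and Cd9 at 212 and 407 CPM. Summed over the list, levels went from 2848 to 4647 CPM in KO cells and from 1890 to 638 CPM in control cells. Over 24 members that averaged 5 CPM or more in the 4 libraries, the median log2 ratio was 0.82 in KO and -1.53 in control cells. In 23 of them the KO ratio exceeded the control ratio by 2-fold or more, a difference met by 7.79% of the 10319 genes with such a mean. This difference between genotypes rests on 1 library per group and was not tested. Within each genotype Gm26924 and reads without a feature moved the same way as this list, and their part in the result was not tested. With mitochondrial and ribosomal RNA entries left out of the library sizes the KO median was 0.86. Leaving them out changes only the scaling common to all genes of a library, so it cannot decide the part of these entries.

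Mmrn1, a platelet granule protein also read in stem cells, was not higher in KO MyePro, unlike Pf4 and Gp1bb. It was read at 247 CPM in KO LSK and 225 in KO MyePro, against 28.4 and 4.61 CPM in the controls. In KO cells it thus stood near the LSK level, and in control cells it was more than 4-fold lower in MyePro.

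**Figure D2:**
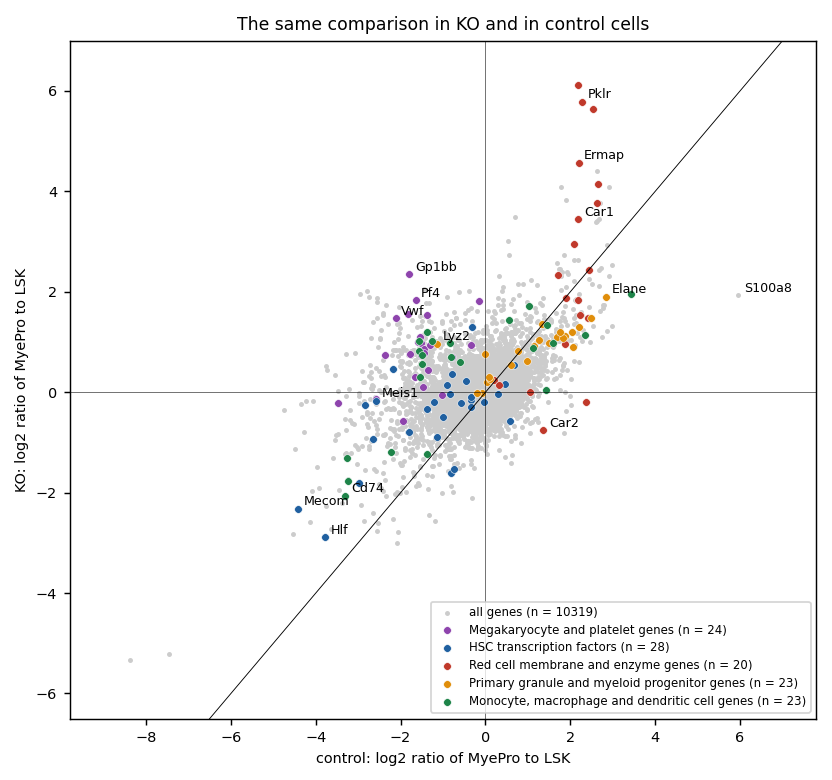
Log2 ratio of MyePro to LSK in KO (vertical) against the same ratio in control cells (horizontal) for 10319 genes that averaged 5 CPM or more in the 4 libraries, 1 library per group. The black diagonal marks equal ratios, and coloured points are 5 gene lists. Megakaryocyte and platelet genes lie left of 0 and mostly above it, red cell genes lie to the upper right, and for genes with 0 counts in KO LSK such as Pklr the height depends on the prior count of 2.

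Granule genes of early neutrophil and monocyte progenitors were higher in KO MyePro as in control MyePro. Elane, neutrophil elastase (chr10:79886312-79888216), was read at 322 CPM in KO LSK and 1203 in KO MyePro, a log2 ratio of 1.90 (1.84 to 1.97), against 225 and 1618 CPM in the controls. Myeloperoxidase, Mpo, was read at 980 and 2109 CPM, a log2 ratio of 1.11, against 2028 and 6546 in the controls. Of 24 listed members 23 passed the floor, with 10 at least 2-fold higher, 0 lower and a median of 0.96, against 1.27 over the same genes in control cells. Prtn3, the third of the neutrophil serine proteases, was read at 267 and 581 CPM, and Ms4a3 at 461 and 1060 CPM. The 18463 CPM that the 24 genes summed to in KO MyePro was close to the 18625 CPM of control MyePro, while KO LSK started higher, at 10761 against 8557 CPM. Lyz2, the lysozyme of macrophages and neutrophils, differed in direction, at 916 and 1784 CPM in KO cells and 396 and 179 in control cells.

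The transcription factors behind that program moved less. Cebpa, which is needed to form granulocyte and monocyte progenitors, was read at 160 and 279 CPM, a log2 ratio of 0.80 (0.70 to 0.91), and Spi1, which encodes PU.1, at 132 and 174 CPM, a log2 ratio of 0.40. Irf8, which directs progenitors to monocytes and dendritic cells, stood at 44.8 and 48.1 CPM, where control cells had 104 and 223 CPM. Of 21 myeloid factors with at least 5 CPM, Egr1 (8.03 and 20.05 CPM) and Tfec (14.3 and 34.3 CPM) were past 2-fold higher. Sox4, a factor of immature and lymphoid-primed cells, was lower, at 80.5 and 22.0 CPM, a log2 ratio of -1.87 (-2.09 to -1.65). The list's median was 0.31.

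Some late neutrophil genes were read in both KO populations and at low levels in the controls. S100a8, a subunit of calprotectin, was read at 59.4 and 226 CPM in KO LSK and KO MyePro and at 0 and 9.38 CPM in the controls. S100a9, its partner, was read at 14.3 and 64.0 CPM, against 0 and 0.717 in the controls. Lcn2, an iron-sequestering granule protein, was read at 92.7 and 314 CPM against 9.04 and 13.7. The KO libraries thus held these 3 transcripts before and after the step, with more in KO MyePro. Other members were well read in control cells, such as Anxa1 at 91.4 and 97.7 CPM, against 176 and 339 CPM in KO cells. Of 22 listed members 11 passed the floor, 6 of them at least 2-fold higher and Padi4 lower (15.9 and 4.81 CPM, against 69.4 and 17.99 in the controls). Padi4 passed it only through the KO LSK library. Some genes of the last stages were near 0 in both KO libraries, with Camp at 1 and 0 counts, Ly6g at 0 and 0, and Ltf at 0 and 7. Not all listed members were so low. Cxcr2 was read at 132 and 150 CPM in KO LSK and KO MyePro, against 22.8 and 13.8 CPM in the controls. Itgam was read at 118 and 111 CPM, against 23.5 and 15.99 CPM in the controls. Ngp, under the floor, had 12 and 78 counts in the KO libraries. The list summed to 747 CPM in KO LSK and 1494 in KO MyePro, and to 308 and 253 CPM in the controls. Of the 22 listed members 6 had 0 counts in KO LSK and 4 in KO MyePro, and the part of mature neutrophils in the result was not tested.

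Monocyte and macrophage genes split from those of antigen presentation. Ly6c2, the marker of inflammatory monocytes, was read at 35.3 and 137 CPM, a log2 ratio of 1.96 (1.76 to 2.16), against 37.5 and 406 CPM in the controls. F13a1 was read at 67.1 and 148 CPM, and Csf1r, the receptor that defines the lineage, at 38.5 and 76.5 CPM. MHC class II genes were lower in KO MyePro. Cd74, the invariant chain, was read at 43.0 and 10.2 CPM, a log2 ratio of -2.07 (-2.41 to -1.77), H2-Aa at 21.6 and 6.22 CPM, and H2-Ab1 at 21.3 and 9.19 CPM. Control cells had a lower level in MyePro too, from a far higher start, with Cd74 at 384 and 38.7 CPM. Of 24 members with at least 5 CPM, 8 were at least 2-fold higher and 5 lower (Cd74, 3 class II chains and Axl). Vcam1, among the 8 higher, was read at 4.02 and 13.5 CPM and passed the floor only through the KO MyePro library. Macrophage genes such as C1qa stood at 17.9 and 41.4 CPM in KO cells and 9.38 and 3.49 CPM in control cells, where Gm26924 again moved the same way within each genotype and its part was not tested.

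**Figure D3:**
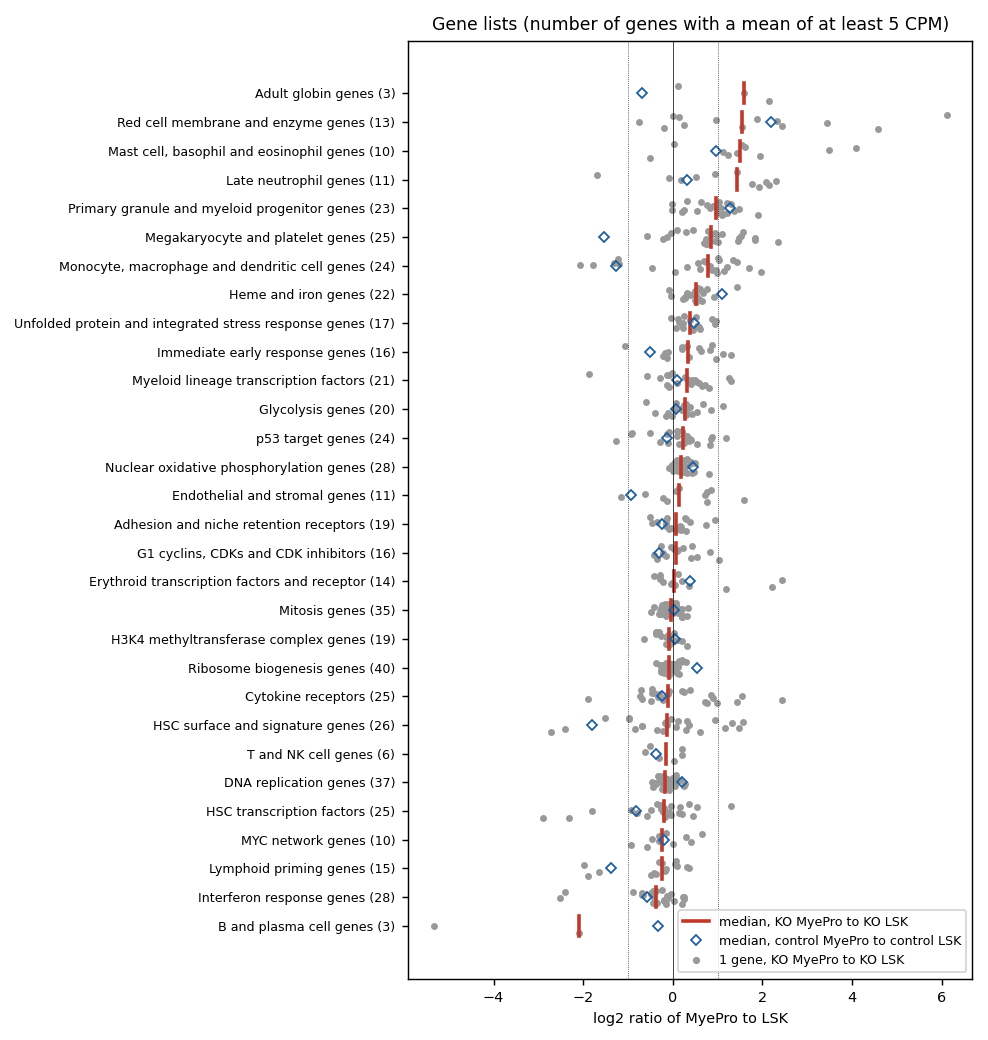
Log2 ratio of KO MyePro to KO LSK for each gene that averaged 5 CPM or more in the 2 KO libraries (grey points) in 30 gene lists, sorted by their median (red bar); the number of genes is in parentheses. Blue diamonds give the median ratio of control MyePro to control LSK over list members with that mean over the 4 libraries, and dotted lines mark 2-fold. Red cell, mast cell and basophil, late neutrophil, granule and megakaryocyte lists have medians between 0.86 and 1.53, and the megakaryocyte and stem cell surface lists have the diamond far to the left of the bar.

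Stem cell regulators differed less between KO LSK and KO MyePro than between the control libraries. Hlf, a factor of self-renewing stem cells (chr11:90336535-90390917), was lower in both genotypes. It was read at 44.5 and 5.87 CPM in KO cells, a log2 ratio of -2.89 (-3.33 to -2.54), and at 194 and 13.9 CPM in control cells. Mecom, which encodes EVI1, was read at 10.3 and 1.93 CPM, and Gata3 at 12.6 and 3.50 CPM. These were the 3 members of 25 that were past 2-fold lower, and Egr1 was past 2-fold higher. Mecom and Gata3 passed the 5 CPM floor only through the KO LSK library. Other regulators stood near equal levels. Meis1, the HOX cofactor (chr11:18880428-19019651), was read at 85.2 CPM in KO LSK and 76.0 in KO MyePro, a log2 ratio of -0.17 (-0.32 to -0.01). In control cells it went from 159 to 26.3 CPM.

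Myct1 stood at 145 and 121 CPM against 98.6 and 13.7, and Mycn at 92.1 and 48.4 CPM against 54.1 and 8.51. Fli1, a factor of stem cells and megakaryocytes, stood at 237 and 263 CPM against 171 and 90.9. Hoxa9 was scarce in both KO libraries, at 3.57 and 1.14 CPM, against 41.5 and 24.9 in the controls. Over the 28 members that averaged 5 CPM or more in the 4 libraries the median log2 ratio was -0.21 in KO and -0.82 in control cells. In 12 of the 28 the KO ratio was at least 2-fold above the control ratio, and in 1 it was that far below. Over all 10319 genes the shares were 7.79% above and 1.52% below.

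Surface and signature genes of stem cells gave a wider gap. Of 27 such members, 26 were at least 2-fold lower in control MyePro than in control LSK. In KO cells 3 were, and the medians were -1.80 in control and -0.13 in KO cells. Over all 10319 genes the shares were 7.82% in control and 1.56% in KO cells. Gm26924 and reads without a feature were also lower in control MyePro than in control LSK, and their part was not tested. The 3 lower in KO cells were Procr, the protein C receptor of long-term stem cells (12.3 and 1.75 CPM), Eltd1 (199.96 and 69.4 CPM) and Ly6a (61.1 and 11.5 CPM). Procr passed the floor only through the LSK libraries. Ly6a encodes Sca-1, which the LSK sort uses, so its lower level in KO MyePro is no finding, though the MyePro gate is not given. Kit, also used in the LSK sort, was read at 386 and 240 CPM. Cd34 was read at 837 and 422 CPM in KO cells and 762 and 319 in control cells. By contrast, Esam stood at 25.3 and 19.9 CPM in KO cells and at 20.5 and 0.615 CPM in control cells, and Tek, the angiopoietin receptor, at 31.1 and 38.0 against 22.6 and 3.33. Members that were at least 2-fold higher in KO MyePro were Vwf, Sdpr, Clu and Pdzk1ip1, of which Vwf and Sdpr also stand in the megakaryocyte list.

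Lymphoid priming genes that passed 2-fold were all lower in KO MyePro. Flt3, the receptor of lymphoid-primed progenitors (chr5:147330741-147400489), was read at 35.3 and 9.37 CPM, a log2 ratio of -1.90 (-2.26 to -1.58), and at 123 and 31.2 CPM in control cells. Cd27 was read at 21.0 and 6.57 CPM and Lax1, an adaptor of lymphocytes, at 13.5 and 3.33 CPM. Those were the 3 of 15 members past 2-fold, with a median of -0.25 over the 15. Lax1 passed the floor only through the KO LSK library. Dntt, which diversifies antigen receptors, had 5.65 and 2.19 CPM, under the floor over the 2 KO libraries, against 57.0 and 4.61 CPM in the controls. The step down in Flt3 was of like size in the 2 genotypes, with a KO ratio 0.08 above the control one on the log2 scale. Immunoglobulin transcripts were also lower in KO MyePro, Igkc (chr6:70726435-70726754) at 44.9 and 0.963 CPM and Ighm at 46.3 and 10.7 CPM. Fcrla, the third member of the B and plasma cell list with at least 5 CPM, was past 2-fold higher, at 2.68 and 8.84 CPM. Igkc passed the floor only through the KO LSK library, and Fcrla only through KO MyePro. Other members were scarce in both KO libraries, with Ms4a1 at 0 counts in each, Cd79b at 10 and 29 counts and Vpreb1 at 3 and 28. The other genes among the 15 lowest ratios included Tox (72.5 and 14.9 CPM), Lag3 (87.0 and 24.8 CPM), Mex3a (57.6 and 15.6 CPM) and Ifi203 (161 and 53.1 CPM).

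**Figure D4:**
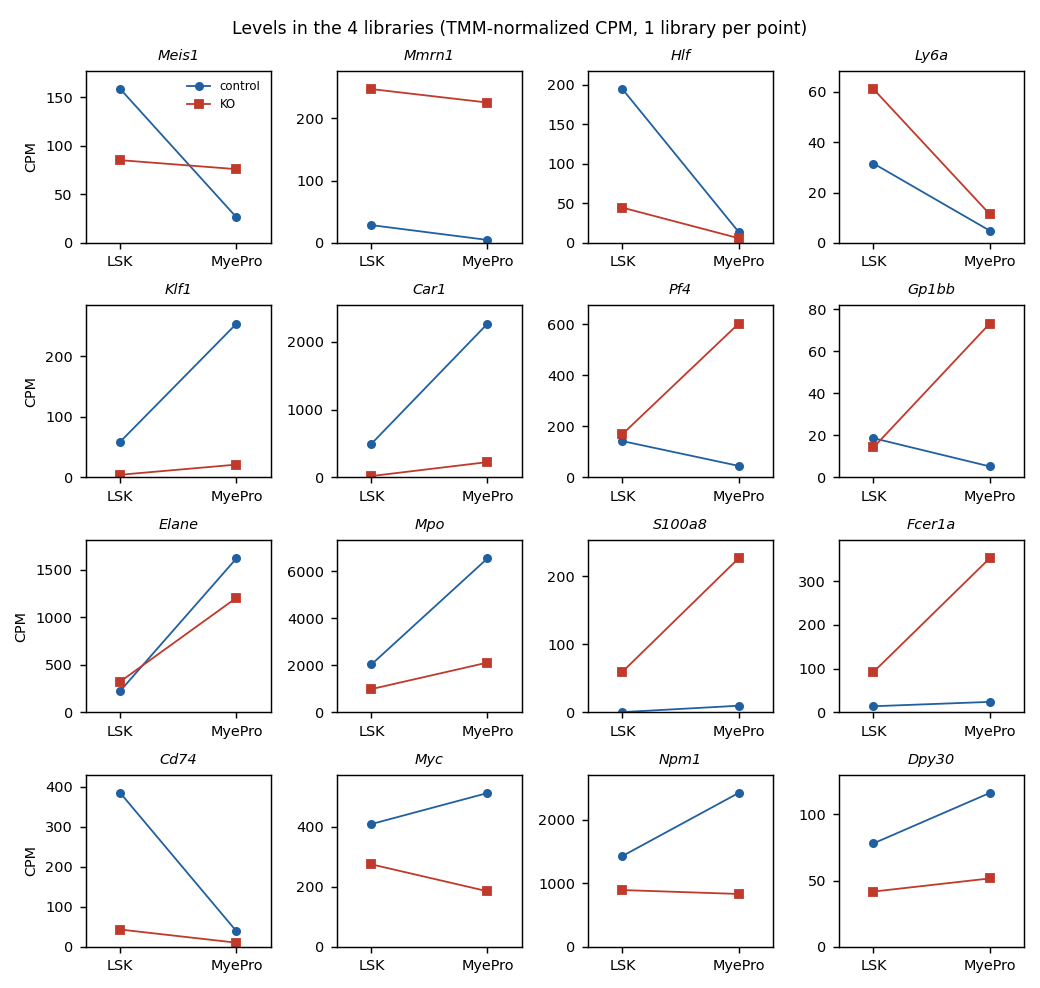
CPM of 16 genes in LSK and MyePro, KO in red squares and control in blue circles, with 1 library per point and a vertical axis from 0 in each panel. Lines join the 2 populations of a genotype. Meis1 is nearly level in KO and drops in control cells, as does Mmrn1, Pf4 and Gp1bb part in opposite directions, and Klf1 and Car1 are higher in MyePro of both genotypes but far lower in KO.

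Receptors for cytokines were mostly near equal. Of 25 with at least 5 CPM, Epor, Il1rl1 and Csf2rb2, the mouse-specific IL-3 receptor beta chain (78.1 and 212 CPM), were past 2-fold higher and Flt3 past 2-fold lower. The chain it resembles, Csf2rb, was read at 118 and 192 CPM, and reads may be shared between the pair. The receptor for G-CSF, Csf3r, stood at 179 and 128 CPM.

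Nucleolar genes were higher in MyePro than in LSK in control cells and stood at like levels in the 2 KO populations. Npm1, nucleophosmin (chr11:33152498-33164142), was read at 892 and 830 CPM in KO LSK and KO MyePro, a log2 ratio of -0.10 (-0.15 to -0.06), and at 1427 and 2417 CPM in the controls. Ncl, nucleolin, was read at 1018 and 955 CPM against 1766 and 2562 CPM. Of 40 ribosome biogenesis genes, 0 were past 2-fold in either genotype, and their log2 ratios ran from -0.38 to 0.29 in KO cells with a median of -0.09. Their median in control cells was 0.53. Myc, which drives such genes, was read at 275 and 185 CPM in KO cells, a log2 ratio of -0.57 (-0.66 to -0.48), and at 409 and 513 CPM in control cells.

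Cell cycle genes moved little. None of 35 mitosis genes (median -0.04, range -0.50 to 0.33) and none of 37 DNA replication genes (median -0.18, range -0.46 to 0.27) were past 2-fold in KO cells. Top2a, which untangles chromosomes, was read at 421 and 299 CPM, and Mcm6, part of the replicative helicase, at 577 and 493 CPM. Among G1 regulators Ccnd1 was past 2-fold higher, at 12.8 and 26.2 CPM, where control cells went from 79.8 to 42.4 CPM. The CDK inhibitor Cdkn1a was read at 33.9 and 60.0 CPM, against 14.5 and 8.66 in the controls. Nuclear genes of oxidative phosphorylation had a median of 0.18 and glycolysis genes one of 0.27, with 0 of 28 and 1 of 20 (Eno3) past 2-fold. Eno3, at 3.27 and 7.27 CPM, passed the floor only through the KO MyePro library.

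Stress and signalling lists held few genes past 2-fold. Of 24 p53 targets, Phlda3 was higher (8.03 and 18.4 CPM) and Sesn1 lower (76.3 and 31.5 CPM). Of 28 interferon response genes, Ifi44 was lower (14.3 and 2.36 CPM), as was Ly6a, 0 were higher and the median was -0.37. Ifi44 passed the floor only through the KO LSK library, and the product of Ly6a is used in the LSK sort. All cells had been exposed to pIpC, which induces interferon. Among 16 immediate early genes Egr1 and Atf3 (6.99 and 15.3 CPM) were past 2-fold higher and Socs3 lower (39.0 and 18.6 CPM), and the median of 0.33 compares with -0.51 in control cells. Of 17 unfolded protein and integrated stress response genes 0 were past 2-fold, with a median of 0.38, near the 0.46 of control cells. Asns, a target of ATF4, was the highest, at 29.8 and 58.2 CPM.

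DPY30's partners were read at like levels in both KO populations. Of 19 members of the H3K4 methyltransferase complexes 0 were past 2-fold, and their log2 ratios ran from -0.63 (Setd1b, 44.8 and 28.8 CPM) to 0.31 (Dpy30), with a median of -0.08. The core subunits Ash2l (118 and 112 CPM), Rbbp5 (57.4 and 51.4 CPM) and Wdr5 (157 and 147 CPM) differed by less than 1.5-fold. The catalytic subunit Kmt2a stood at 45.8 and 44.6 CPM.

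Other cell types left the following marks. T and NK cell genes summed to 628 CPM in KO LSK and 691 in KO MyePro against 228 and 219 in the controls, mostly Nkg7 and Gzmb, which progenitors and mast cells also express. Of 6 with at least 5 CPM in the KO libraries 0 were past 2-fold, and Cd3e had 0.149 and 0.0875 CPM. Among the 6, Klrb1c was read at 27.4 and 17.7 CPM in KO cells, against 0.884 and 0.154 in the controls. Gzmc was read at 20.4 and 16.5 CPM against 0 and 0, and Ccl5 at 10.7 and 7.44 CPM against 2.45 and 0.769. Under the floor, Lck and Cd8a were lower in each KO library than in the control library of the same population, and others were higher. Gzma was read at 1.04 and 6.30 CPM in KO cells against 0 and 0 in the controls. Il2rb was read at 3.27 and 3.68 CPM against 0.75 and 0.10, and Prf1 at 0.74 and 2.01 CPM against 0.07 and 0.15. Endothelial and stromal genes summed to 625 and 565 CPM, with Kdr past 2-fold higher (8.78 and 26.6 CPM) and Pdgfrb lower (126 and 55.9 CPM), and Lum at 0 in both. The part of such cells in the results above was not tested.

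Set against control cells as a whole, the KO step moved fewer genes. Control MyePro and control LSK differed by 2-fold or more at 10.0% of 10074 genes, with 3.17% higher and 6.87% lower, against 4.77% in KO cells. The median absolute log2 ratio was 0.21 in KO and 0.31 in control cells. At 8-fold 6 genes were higher and 2 lower in KO cells (Car1, Ermap, Prg2, Prss34, Slc38a5 and Sphk1, and Gimap7 and Igkc), and 5 were higher and 45 lower in control cells. Over the 10319 genes that averaged 5 CPM or more in the 4 libraries, 331 were past 2-fold higher in KO cells (3.21%) and 319 in control cells (3.09%). Shared between them were 146, which is 44.1% of the KO set and 45.8% of the control set. Lower genes were unequal in number, 161 in KO cells (1.56%) and 807 in control cells (7.82%). Shared were 109, 67.7% of the KO set and 13.5% of the control set, and 641 of the 807 stood within 2-fold in KO cells. In 804 genes the KO ratio exceeded the control ratio by 2-fold or more and in 157 (1.52%) it fell short by as much. The ratios correlated across genes at Pearson's r = 0.41 and Spearman's rho = 0.35. The 2 ratios share no library, but genes are not independent replicates, and scaling and depth are common to all genes of a library.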

How the data were processed

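RNA-seq of 4 libraries (KO and control LSK and MyePro, 1 pool of 2 to 3 mice each) was used, with the 4 LT-HSC libraries only for the spread between replicate pools; the ChIP-seq samples were not analysed here. The labels' genotype and cell type fields gave the groups. PolyA RNA was selected in 2 rounds, and only LT-HSC RNA was amplified, per the labels' protocols. The authors deposited raw counts listed by gene symbol; per the submitters' processing notes the tools included TopHat2, Picard 1.126 and HTSeq 0.6.0 with build mm10, while for annotation and strandedness nothing is stated there. Overlapping genes and near-identical copies may therefore share reads, and multiply aligned reads took 29.9% to 37.9% of each file's entries. Entries that name no gene and an unexplained entry, DPY30-SPKIG, were left out, which kept 38926 gene entries.

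Counts were scaled with TMM factors over the 4 libraries (edgeR 4.0.16, R 4.3.3). Log2 ratios of CPM used a prior count of 2, over genes averaging 5 CPM or more in the 2 libraries compared, or in all 4 where the genotypes are set side by side, so a gene near 0 in one library enters only if high in another. A gene was counted at 2-fold. Intervals of 95% are exact binomial (Clopper-Pearson, scipy 1.17.1) on each gene's share of the 2 counts; folds against 0 counts use a floor of 3 counts per library. PCR reads without molecular identifiers are not independent molecules, so intervals and floors cover counting error only. The procedure was tested on simulated data that held counting error only, so that test does not cover spread between mice or PCR copies. Alternatives were other scalings, prior counts of 0.5 and 5, other floors, thinning to the KO LSK total and leaving out ribosomal entries.

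Named genes are Dpy30, the 15 highest and 15 lowest ratios with a mean of at least 20 CPM, the 10 largest differences between genotypes each way, up to 6 members of each list past 2-fold (or its 2 highest expressed where it has none), and members of the stem cell, erythroid, myeloid and H3K4 regulator lists. Members, the 31 lists and these rules were chosen with earlier results of these data known. All other genes named, such as Mpo, Mmrn1, Itga2b, Cpa3, Mcpt8, Lyz2, Cd34, Kit, Esam, Tek, Tfrc, Cdkn1a, Asns and those with 0 or few counts, were chosen after their values were seen. Promoter windows are from RefSeq GRCm38.p6, as are gene positions. A few genes of the lists are counted in them but not reported here by name.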

Additional observations from a re-analysis of the deposited data

Results flagged for a closer look

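The results below have opposite directions in KO and in control cells, or come from an entry outside the gene table. With 1 library per group none of these differences was tested. In all, 57 genes were at least 2-fold higher in KO MyePro than in KO LSK and at least 2-fold lower in control MyePro than in control LSK, and 0 showed the opposite. They mix platelet genes (Pf4, Gp1bb, Vwf, Gp9, Treml1) and macrophage genes (C1qa, Cd14, Cd5l) with ribosomal and other structural RNA entries (Gm26924, Lars2, mt-Rnr1, mt-Rnr2, Rn7sk).

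As a median over list members, the KO log2 ratio exceeded the control ratio by 2.38 for megakaryocyte and platelet genes and by 1.24 for monocyte, macrophage and dendritic cell genes. The excess was 1.89 for endothelial and stromal genes, 1.54 for 2 globin genes and 1.09 for immediate early genes. Among single genes it was 4.14 for Gp1bb, 3.47 for Pf4, 3.59 for Vwf, 3.38 for Sdpr and 2.92 for Treml1, all of the platelet list. It was 3.78 for Trpc6, a cation channel, 2.85 for Pdzk1ip1, 2.92 for Fcrla and 2.94 for the stress factor Atf3. The RNA entries mmu-mir-6240 and mmu-mir-6236, named after short annotated loci, exceeded by 4.35 and 4.04.

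The entry DPY30-SPKIG, which the labels do not explain and which was kept out of all ratios, was read in each of the 4 libraries. It stood at 361 CPM in KO LSK against 337 in control LSK, and at 1020 CPM in KO MyePro against 75.3 in control MyePro, higher in the KO library of each population.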

How the results depend on the processing

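No paired analysis was possible because each group has 1 library and the results come from no test. The 339 genes past 2-fold higher and 154 lower in KO MyePro, and the 804 and 157 genes whose KO ratio lay above and below the control ratio, depend most on the floor. They became 861, 460, 1646 and 379 with a mean of at least 1 CPM and 2390, 1499, 3734 and 1699 with no floor. With a mean of at least 10 CPM the first 3 became 211, 90 and 512. Requiring the counting interval to lie past 2-fold left 156 and 67. Library totals gave 234 lower genes. Those totals moved the genes past 2-fold between the KO LT-HSC pools from 1071 to 4915, and a floor of 10 CPM moved the KO and control pools to 515 and 710. The cause was not tested where the scaling was changed; the floors change how many genes are counted. Other counts stayed within 1.5 times under the remaining scalings, prior counts, thinning and removal of ribosomal entries (32 of 46 count comparisons in all). Of 341 list medians 319 moved little, 20 moved further and 2 turned: the median of B and plasma cell genes was -2.10 over 3 genes, 0.73 over 9 at a floor of 1 CPM and 0.68 over 14 with no floor. Medians near 0 of the adhesion, endothelial, erythroid regulator and G1 lists were below 0 with library totals. Of 1231 single-gene ratios 1201 moved by less than their counting interval. The depth of KO LSK, 6130320 gene counts, sets 3 counts at 0.489 CPM before scaling, so genes near that level cannot be ranked.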
